A study of Mus musculus with 20 samples.

Results

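The corticotropin-releasing hormone (CRH) and urocortin system was described here through 6 genes, Crh, Ucn, Ucn3, Crhr1, Crhr2 and Crhbp, out of 19214 genes counted in the mouse BNST, the bed nucleus of the stria terminalis. The genes were taken by name, with no cut on their values, though earlier results of these data were known. All 6 were found by identifier. The study used chronic restraint stress (CRS) as a mouse model of anxiety, and each library was labelled as control or susceptible, and as female or male. There were 20 libraries of polyadenylated RNA in 4 groups of 5: female control, female susceptible, male control and male susceptible. Neither the strain and age of the mice nor the length of the stress and the criterion for susceptibility is given in the sources used here. The labels also do not say whether each library came from its own mouse or from pooled mice, so that the p-values below rest on how libraries of a group differ, in part perhaps for technical reasons.

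CRH and the urocortins are secreted peptides that act on a pair of G protein-coupled receptors, CRHR1 and CRHR2, both of which mainly raise cyclic AMP in the target cell. CRH prefers CRHR1, urocortin (Ucn) binds both receptors, and urocortin 3 (Ucn3) is selective for CRHR2, while CRH-binding protein (Crhbp) is a secreted protein that sequesters CRH and urocortin. The BNST, a part of the extended amygdala, contains CRH neurons, receives CRH fibres from the amygdala and is known for its part in sustained anxiety-like states.

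Total counts were between 14637636 and 17862840 per library. Uty, Kdm5d and Eif2s3y, on the Y chromosome, had 0 counts in the 10 female libraries and at least 287 in each male library. Ddx3y, also on the Y chromosome, had 3 counts over all female libraries and at least 1097 in each male library. The sex labels thus matched the counts. All 21 markers of the BNST and extended amygdala had reads in each of the 20 libraries. They reached from Gad2, an enzyme of GABA synthesis, at 454 to 989 CPM (read counts scaled to library size) to Cyp19a1, aromatase, at 0.066 to 1.40 CPM. The lowest Cyp19a1 value was that of 1 read. How far the list is particular to the BNST was not tested. Markers of the tissue around the BNST differed widely between libraries of 1 group. The summed level of 10 hypothalamic markers ranged from 13.3 to 481 CPM in female controls and from 8.65 to 422 CPM in susceptible females, and that of 9 cortical and hippocampal markers from 240 to 1857 CPM in susceptible females.

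Per length of exon, Crh and Crhr1 were the most abundant members and Ucn the least. Crh averaged 6.10 ± 2.31 CPM per kilobase of exon (SD, n = 20), Crhr1 5.33 ± 0.786, Crhbp 3.57 ± 1.55, Crhr2 1.22 ± 0.417, Ucn3 0.960 ± 0.943 and Ucn 0.215 ± 0.275. The level of Crhr1 per length was above that of Crhr2 in 20 of 20 libraries, with a median ratio of 4.23. Crh exceeded Crhr1 in only 12 of 20 libraries, so that their order was not settled. Crh exceeded Crhbp in 16 of 20 libraries and Crhr1 exceeded Crhbp in 17 of 20. Ucn3 exceeded Crhr2 in 6 of 20. The lengths are of all annotated exons of a gene together, 2460 bases for Crhr1 and 5115 for Crhr2. The annotation used for counting is not known, so the ratios between genes depend on these lengths. Without scaling by length, the means over 20 libraries were 13.1 CPM for Crhr1 and 6.26 CPM for Crhr2.

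**Figure D1:**
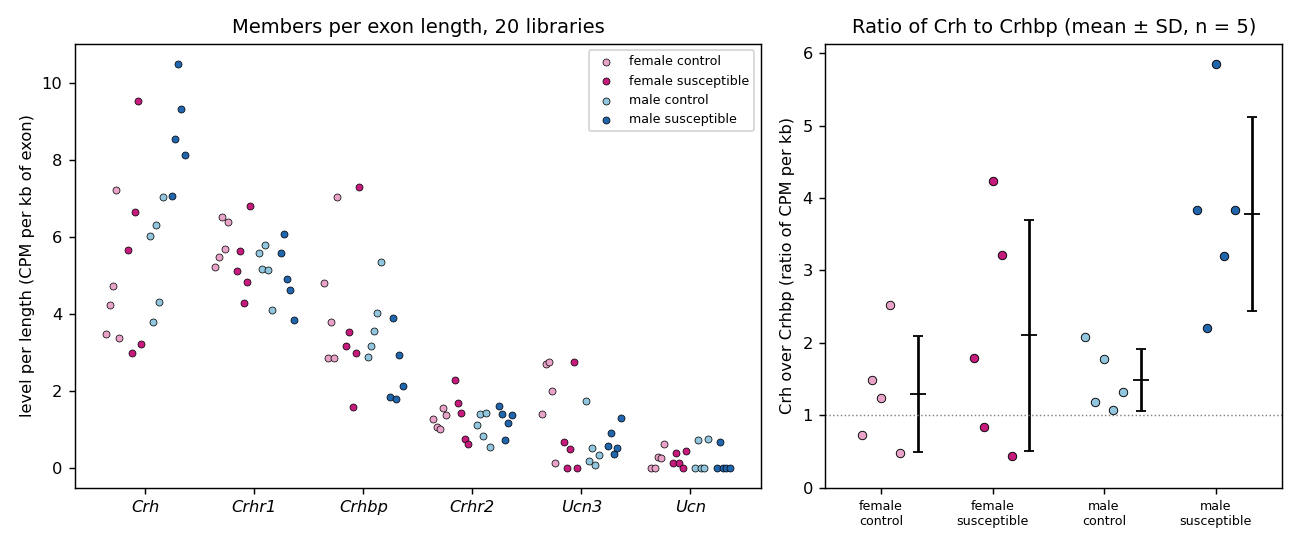
Left, level of each of the 6 genes in CPM per kilobase of exon (y axis) in the 20 libraries, each point a library coloured by group. Right, ratio of Crh to Crhbp on the same scale in each library, with the mean and SD of 5 libraries per group; the 5 libraries of susceptible males lie between 2.20 and 5.86, while the other groups reach from 0.442 to 4.24.

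Among the ligands, Crh in males was the 1 case in which the control and susceptible libraries did not overlap. Crh (ENSMUSG00000049796; GRCm38 chromosome 3, 19693401 to 19695396, minus strand) encodes the CRH precursor. In male controls its level in libraries 1 to 5 was 7.93, 4.98, 8.33, 5.68 and 9.29 CPM. In susceptible males it was 9.32, 11.3, 13.8, 12.3 and 10.7 CPM. The fifth control and the first susceptible library nearly touched, and the means were 7.24 ± 1.83 and 11.5 ± 1.70 CPM (SD, n = 5). Of all 14884 genes tested, 1.44% had every susceptible male library above every male control. The difference was 0.67 ± 0.28 on the log2 scale (estimate ± SE, 95% interval 0.09 to 1.25). It did not pass the test across all genes (edgeR, unadjusted p = 0.0265, adjusted p = 0.465), a comparison in which 0% of genes passed and 9.67% had an unadjusted p under 0.05. In bulk tissue, more cells of a type and more RNA per cell cannot be told apart.

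Crh in females did not separate the groups. The female controls had 4.59, 5.59, 6.23, 9.53 and 4.43 CPM and the susceptible females 7.46, 3.92, 8.78, 12.6 and 4.25 CPM. Susceptible females held both the lowest female value and the highest, and their SD (3.56 CPM) was the widest of the 4 groups. The log2 difference was 0.29 ± 0.28 (interval -0.30 to 0.88; edgeR, adjusted p = 0.823), in a comparison where 0% of genes passed and 5.85% had an unadjusted p under 0.05. Leaving out 1 library gave 0.01 (without the fourth susceptible female) to 0.51 (without the fourth female control), and it was 0.45 and 0.43 without the second and the fifth susceptible female. The stress difference of females minus that of males was -0.38 ± 0.39 (edgeR, adjusted p = 0.741), where 0% of genes passed and 8.26% had an unadjusted p under 0.05, so a difference between the sexes in the response was not shown. Averaged over both sexes the difference was 0.48 ± 0.20 (interval 0.07 to 0.89; edgeR, unadjusted p = 0.0253, adjusted p = 0.604), where 0% of genes passed and 7.71% had an unadjusted p under 0.05.

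The estimate for Crh in males was above 0 under each of 34 ways of processing. Of these, 20 left out 1 library, which could not reverse the sign between groups that did not overlap. Nor could leaving out libraries rich in transcripts of neighbouring tissue, and other filters, scalings and tools on the same counts had little room to. Only fits with an added term, such as a marker score, could readily have turned the sign. Its constancy is therefore largely a restatement of the groups not overlapping. The estimate passed the threshold under 1 of the 33 ways that gave an adjusted p, limma voom with weights for library quality. Limma voom gave 0.84 on the log2 scale (adjusted p = 0.0304) and called 689 genes (4.63%). Estimates of several marker lists lay to 1 side of 0 in the same comparison, with 0 markers called by edgeR. All 9 cortical and hippocampal markers had estimates below 0 in susceptible males (median -1.08 on the log2 scale, 1 at an unadjusted p under 0.05), with summed levels of 359 to 1096 CPM in male controls and 275 to 669 CPM in susceptible males, and no marker at 0. All 10 striatal (median -0.35) and all 7 vessel markers tested (median -0.43) were below 0 too, while all 8 thalamic (median 0.76) and all 7 oligodendrocyte markers (median 0.33) were above 0. Of the 21 BNST markers, 15 were above 0 (median 0.06). With the cortical marker score as a covariate the Crh difference in males was 0.45 ± 0.28, and with the BNST marker score 0.50 ± 0.26. Without the libraries over 100 CPM of Ttr, a choroid plexus transcript, it was 0.82 ± 0.41, over 4 control and 3 susceptible libraries. With the BNST score Crh was 0.14 ± 0.26 in females, 0.32 ± 0.19 averaged over the sexes and 0.42 ± 0.26 for susceptible males minus females. In these comparisons 17, 19 and 15 of the 21 BNST markers were above 0. Both scores were chosen after the correlations had been seen, and their part was not tested.

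Between the sexes, Crh in controls was 0.25 ± 0.28 higher in males on the log2 scale (edgeR, adjusted p = 0.626), a value within the spread of the libraries. In susceptible mice it was 0.63 ± 0.28 higher in males (interval 0.05 to 1.21; edgeR, unadjusted p = 0.0347, adjusted p = 0.774), and 4 of the 5 male libraries lay within the range of the females. Between control mice of either sex 0.511% of genes passed the test, and between susceptible mice 0.047%, with 6.28% at an unadjusted p under 0.05. None of the 5 members tested was among the genes that passed. Crh was the only member with a step between neighbouring group means larger than their pooled SD: the 4.09 CPM between susceptible females and susceptible males, against an SD of 2.79 CPM. The other 17 of 18 such steps over the 6 genes were smaller than the SD, and the ranges of the neighbouring groups overlapped in all 18.

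**Figure D2:**
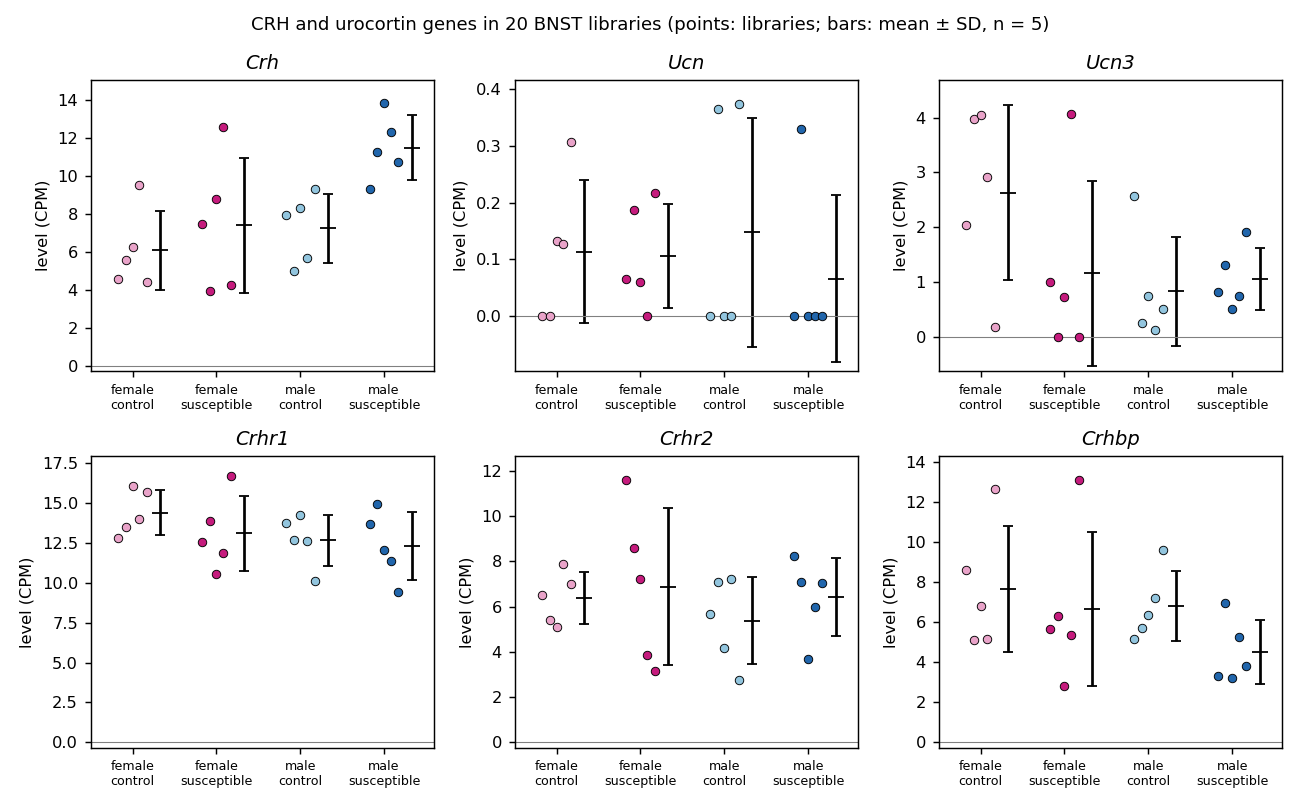
Level of each gene in CPM (y axis) by group (x axis); each point is 1 library, and the bar beside it gives the mean and SD of 5 libraries. Susceptible males lie at 9.32 CPM of Crh or above and male controls at 9.29 or below; the groups overlap for the other 5 genes.

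Ucn, the gene of urocortin (ENSMUSG00000038676; chromosome 5, 31138063 to 31138829, minus strand), was close to the detection limit. The 20 libraries held 34 reads of it in all, and 10 libraries held 0, a count that at this depth allows up to 3 reads. The sums were 9 reads in female controls, 8 in susceptible females, 12 in male controls and 5 in susceptible males, and its highest level was 0.374 CPM. Ucn was removed by the filter on low counts and was not tested. A difference between groups was not detectable at this depth.

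Ucn3 (ENSMUSG00000044988; chromosome 13, 3940688 to 3945349, minus strand) was the most variable of the members tested. Female controls had 2.04, 3.98, 4.04, 2.92 and 0.185 CPM, and susceptible females had 0.990, 0, 0.722, 4.06 and 0 CPM. In male controls it was 2.56, 0.243, 0.739, 0.115 and 0.499 CPM and in susceptible males 0.810, 1.32, 0.505, 0.741 and 1.91 CPM. Most female controls stood above most of the other libraries, but the fifth female control was near the bottom and the fourth susceptible female had the highest value of all, so that all groups overlapped. Group means were 2.63 ± 1.60 CPM in female controls, 1.15 ± 1.68 in susceptible females, 0.831 ± 0.997 in male controls and 1.06 ± 0.561 in susceptible males (SD, n = 5).

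No difference in Ucn3 passed the test. It was -1.15 ± 0.88 on the log2 scale between susceptible and control females (interval -2.99 to 0.69; edgeR, adjusted p = 0.787) and 0.34 ± 0.95 in males (interval -1.65 to 2.34; edgeR, adjusted p = 0.929). The largest was between the controls, -1.66 ± 0.91 for males minus females (interval -3.56 to 0.25; edgeR, adjusted p = 0.319). All these intervals cover 0, so the data fix no direction. Between susceptible males and females it was -0.17 ± 0.92 (edgeR, adjusted p = 0.978), averaged over the sexes the stress difference was -0.40 ± 0.65 (edgeR, adjusted p = 0.949), and for females minus males it was -1.49 ± 1.30 (edgeR, adjusted p = 0.684).

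Most hypothalamic markers, among them the neuropeptide genes Oxt, Avp and Pmch, had estimates of the same sign as Ucn3 between the female groups and between the controls. All 10 had estimates below 0 in susceptible against control females (median -1.24 on the log2 scale), and 9 of 10 had estimates below 0 in male against female controls (median -1.87). Their summed level was 13.3 to 481 CPM in female controls, 8.65 to 422 in susceptible females and 11.9 to 268 in male controls, with no marker at 0 in a group. Other lists went either way in these 2 comparisons. All 8 thalamic (medians -0.56 and -1.57) and all 7 oligodendrocyte markers (-0.32 and -0.63) were below 0. So were 8 and 9 of 10 choroid plexus markers. All 10 striatal markers (medians 0.89 and 0.99) were above 0, as were 17 and 15 of 21 BNST markers. The Ucn3 difference varied with the marker score and the libraries used. The hypothalamic score was chosen as a covariate after its correlation with Ucn3 had been seen, and its part in the difference was not tested. With it as a covariate the Ucn3 difference was -0.21 ± 0.66 between the control groups and -0.22 ± 0.62 between the female groups. Without the libraries over 100 CPM of Ttr these differences were -0.90 ± 1.28 and -0.30 ± 1.33. The Ttr limit kept 3 female controls, 3 susceptible females and 4 male controls. Without the libraries over 1 CPM of the hypothalamic transcript Pmch the Ucn3 difference between the controls was -0.90 ± 1.08. That between the female groups was larger, -1.81 ± 1.19. The Pmch limit kept only 2 female controls, with 4 susceptible females and 5 male controls. The cortical score also gave a larger female difference, -1.86 ± 0.82, and leaving out 1 library gave -2.58 (without the fourth susceptible female) to -0.84. Between the controls, leaving out 1 library gave -2.73 (without the first male control) to -1.37. With limma voom and library weights, the Ucn3 difference between the controls was -2.48 and passed the threshold (adjusted p = 0.0316), in a fit that called 3324 genes (22.3%), and that between the female groups was -3.05 (adjusted p = 0.525).

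The receptors share a stretch of coding sequence, shown because a short read lying wholly within it would not tell them apart. The longest run of identical coding bases between Crhr1 (ENSMUSG00000018634; GRCm38 chromosome 11, 104132855 to 104175523, plus strand) and Crhr2 (ENSMUSG00000003476; chromosome 6, 55090049 to 55133016, minus strand) was 24 bases, in capitals below with 20 bases on either side, 5′ to 3′, from GENCODE M21 transcripts. Over these 64 coding bases, which span the junction of exons 11 and 12 of 13 in both genes, 54 matched.
Crhr1: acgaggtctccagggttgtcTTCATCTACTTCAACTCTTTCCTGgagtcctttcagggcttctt
Crhr2: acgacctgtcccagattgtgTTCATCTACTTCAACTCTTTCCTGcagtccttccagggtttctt
In the genome the stretch lies at chromosome 11, 104173675 to 104173896, for Crhr1 and at chromosome 6, 55092547 to 55093007, for Crhr2, the intron included. The labels give paired reads of 150 bases, longer than the shared run. No annotated gene overlapped any of the 6 members.

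Crhr1, the high-affinity receptor of CRH, was the steadiest member. The 5 female controls were at 12.8, 13.5, 16.0, 14.0 and 15.7 CPM, against 12.5, 13.9, 10.5, 11.9 and 16.7 CPM in the susceptible females. In male controls it was 13.7, 12.7, 14.2, 12.6 and 10.1 CPM and in susceptible males 13.7, 14.9, 12.1, 11.4 and 9.41 CPM. The ranges of the 4 groups overlapped, with the lowest values in males and the highest in females, and the means ran from 12.3 ± 2.13 CPM in susceptible males to 14.4 ± 1.41 CPM in female controls (SD, n = 5). The log2 difference between susceptible and control mice was -0.14 ± 0.13 in females (interval -0.42 to 0.14; edgeR, adjusted p = 0.823) and -0.04 ± 0.13 in males (interval -0.32 to 0.24; edgeR, adjusted p = 0.936). Males minus females gave -0.18 ± 0.13 in controls (edgeR, adjusted p = 0.443) and -0.09 ± 0.13 in susceptible mice (edgeR, adjusted p = 0.920). The stress difference of Crhr1 was -0.09 ± 0.09 averaged over the sexes and -0.09 ± 0.19 for females minus males (edgeR, adjusted p = 0.897 and 0.872).

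Crhr2, the receptor shared by the urocortins, varied more than Crhr1 within groups. It was measured at 6.52, 5.42, 5.11, 7.88 and 7.01 CPM in the female controls, while the susceptible females had 11.6, 8.58, 7.22, 3.84 and 3.17 CPM. In male controls it was 5.67, 7.10, 4.16, 7.23 and 2.74 CPM and in susceptible males 8.24, 7.11, 3.66, 5.99 and 7.04 CPM. Susceptible females held values on both sides of the whole female control range, and the means, from 5.38 ± 1.93 CPM in male controls to 6.88 ± 3.48 CPM in susceptible females, lay within the spread. The log2 difference was 0.11 ± 0.31 in females (interval -0.55 to 0.77; edgeR, adjusted p = 0.937) and 0.25 ± 0.32 in males (interval -0.42 to 0.91; edgeR, adjusted p = 0.822). Between the sexes it was -0.24 ± 0.32 in controls and -0.10 ± 0.32 in susceptible mice (edgeR, adjusted p = 0.679 and 0.964). The stress difference of Crhr2 was 0.18 ± 0.22 averaged over the sexes and -0.14 ± 0.45 for females minus males (edgeR, adjusted p = 0.920 and 0.921).

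Crhbp (ENSMUSG00000021680; chromosome 13, 95431371 to 95444924, minus strand) had estimates below 0 in all 4 comparisons of groups, none past the test. The level in the female controls was 8.61, 5.13, 6.83, 5.15 and 12.7 CPM, and that in the susceptible females 5.67, 6.34, 2.83, 5.34 and 13.1 CPM. In male controls it was 5.18, 5.70, 6.38, 7.23 and 9.60 CPM and in susceptible males 3.31, 6.98, 3.22, 5.25 and 3.82 CPM. In males 3 of 5 susceptible libraries lay below every control, while susceptible male 2 lay within the control range and susceptible male 4 just above its lowest value, with means of 6.82 ± 1.73 CPM in controls and 4.52 ± 1.60 in susceptible males (SD, n = 5). The fifth library of both female groups stood far above the others of its group. The log2 difference was -0.59 ± 0.34 in males (interval -1.31 to 0.12; edgeR, adjusted p = 0.60) and -0.21 ± 0.34 in females (interval -0.91 to 0.49; edgeR, adjusted p = 0.883). With the cortical marker score as a covariate, the difference in males was -0.16 ± 0.23 (edgeR, adjusted p = 0.962). This score was chosen after its correlation with Crhbp had been seen, and its part in the difference was not tested. Males minus females gave -0.17 ± 0.34 in controls and -0.55 ± 0.34 in susceptible mice (edgeR, adjusted p = 0.796 and 0.815). The stress difference of Crhbp was -0.40 ± 0.24 averaged over the sexes and 0.38 ± 0.48 for females minus males (edgeR, adjusted p = 0.749 and 0.781).

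**Figure D3:**
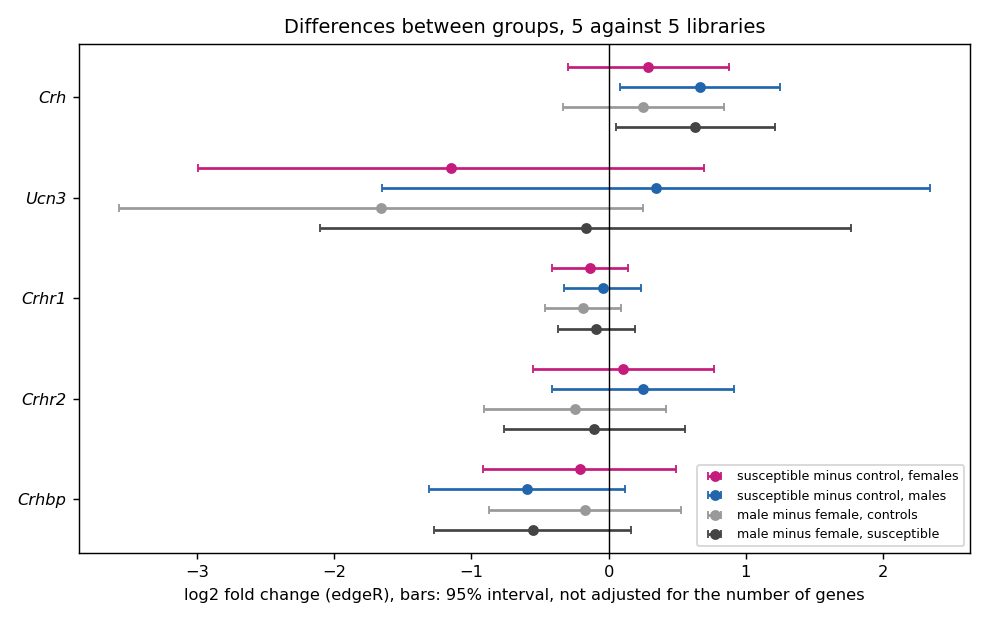
Log2 fold change (x axis) of the 5 members tested, in 4 comparisons of 5 against 5 libraries, as edgeR estimates with 95% intervals that are not adjusted for the number of genes. The intervals of Crh exclude 0 in susceptible against control males (0.09 to 1.25) and in susceptible males against females (0.05 to 1.21); all other intervals cover 0, and those of Ucn3 are the widest.

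The ratio of Crh to its binding protein, per length of exon, combined the values above. It was 0.727, 1.49, 1.24, 2.53 and 0.477 in female controls and 1.79, 0.842, 4.24, 3.21 and 0.442 in susceptible females. It was 2.09, 1.19, 1.78, 1.07 and 1.32 in male controls and 3.84, 2.20, 5.86, 3.19 and 3.83 in susceptible males. The male groups did not overlap, the female groups did, and Crhbp was more abundant than Crh in 2 libraries of each female group and in no male library. The ratio was formed after its parts had been seen and carries no test.

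The genes around the members in the pathway gave 0 calls in either stress comparison, in either direction (edgeR, adjusted over all 14884 genes). DESeq2 gave 0 calls in these lists as well, where it gave an adjusted p, and limma voom with library weights gave 0 in females and 3 in males, Prkar1a, Furin and Crtc2. These 3 are 4.29% of the 70 list genes tested, close to the 4.63% of all genes that voom called in males. Of 26 genes of G protein and cyclic AMP signalling, 14 had estimates above 0 and 12 below in females, and 13 each way in males. Their medians were 0.0069 and 0.0056 on the log2 scale, with 2 genes in each sex at an unadjusted p under 0.05. The median over all genes tested was 0.0062 in females and -0.0097 in males, with 51.6% and 47.5% of estimates above 0. Those with the smallest p were, in females, Atf1, a transcription factor of the CREB family (0.25 ± 0.08), and Adcy6, an adenylyl cyclase (-0.36 ± 0.14), and in males Prkar1a, a regulatory subunit of protein kinase A (0.18 ± 0.07), and Gna11, a G protein alpha subunit (-0.17 ± 0.06).

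Of 11 genes of receptor desensitisation and scaffolding, 7 estimates were above 0 in females and 3 in males, with medians of 0.04 and -0.04 and 1 gene in each sex at an unadjusted p under 0.05. Rgs2, a regulator of G protein signalling, averaged 84.8 ± 23.2 CPM in female controls against 125 ± 35.2 CPM in susceptible females (log2 difference 0.56 ± 0.20; edgeR, adjusted p = 0.774). Grk2, a kinase that phosphorylates active receptors, was at -0.13 ± 0.07 in females. In males the related kinase Grk6 was at -0.15 ± 0.06 and Arrb1, a beta-arrestin, at -0.17 ± 0.09.

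Of 12 genes of peptide processing and release, 5 estimates were above 0 in females and 7 in males, with medians of -0.03 and 0.04, and 2 genes in females and 1 in males had an unadjusted p under 0.05. Mme, the peptidase neprilysin, was at 0.65 ± 0.26 on the log2 scale in females, and Chga, a granin of secretory granules, at -0.20 ± 0.09. The 2 genes of smallest p in males were proteases that cleave prohormones, Furin at -0.23 ± 0.08 and Pcsk1 at 0.32 ± 0.17. Neither passed the edgeR test. Pcsk2, another such protease of the list, is not given here.

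Of 16 known regulators of Crh transcription, among them Otp and Sim1, which are also in the hypothalamic marker list, 10 estimates were above 0 in females and 4 in males, with medians of 0.10 and -0.15, and 0 genes in females and 1 in males had an unadjusted p under 0.05. Crtc2, a CREB coactivator, was 40.4 ± 5.15 CPM in male controls and 33.6 ± 2.39 CPM in susceptible males (log2 difference -0.27 ± 0.08; edgeR, adjusted p = 0.405), and Arnt2, a partner of Sim1, was at -0.19 ± 0.10. In females Sik3, a kinase that holds CREB coactivators in the cytoplasm, was at 0.12 ± 0.07 and Rest, a repressor of neuronal genes, at -0.20 ± 0.11.

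Of 9 other peptides and receptors of the stress axis, 5 were tested. All 5 had estimates below 0 in females and above 0 in males, with medians of -0.28 and 0.50 and 0 at an unadjusted p under 0.05 in either sex. Adcyap1, the gene of the peptide PACAP, was at -0.77 ± 0.61 in females and 0.58 ± 0.64 in males, its receptor Adcyap1r1 at -0.13 ± 0.10 in females, and the vasopressin receptor Avpr1a at 0.36 ± 0.43 in males. The 10 hypothalamic markers, which include Avp and Pomc of this list, were below 0 in females as well (10 of 10) and mostly above 0 in males (8 of 10, median 0.52). Their part in the values of the list was not tested.

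Most members varied among libraries far more than genes of like abundance. The coefficient of variation over 20 libraries was 98.2% for Ucn3, where the median of 985 genes of like count was 34.6%. It was 43.5% for Crhbp (19.8%), 37.9% for Crh (18.0%) and 34.0% for Crhr2 (19.9%), with the median of like genes in parentheses. Crhr1, at 14.8%, was close to its peers (14.4%). Counting error alone would give 20.8% for Ucn3 and between 6.91% and 9.99% for the other 4. Within groups the values were still 91.2% for Ucn3, 42.8% for Crhbp, 35.8% for Crhr2 and 29.9% for Crh, so that most of the variation lay between libraries of the same group.

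This variation followed different marker lists for different members. Of 72 relations between the 6 genes and 12 marker lists, 9 had an adjusted permutation p under 0.05 for Pearson's r over the 20 libraries. The lists were chosen with earlier results of these data known, which these p-values do not allow for. Ucn3 and the hypothalamic score gave r = 0.85 (permutation p = 1e-05, the smallest that 100000 resamples can give; adjusted p = 0.00036) and Spearman's rho = 0.87 (adjusted permutation p = 0.00072). The r was 0.87 without the 2 libraries farthest from the median of the score and 0.81 for deviations from the group means. Ucn3 also varied with the thalamic markers (r = 0.73, rho = 0.77; adjusted permutation p = 0.00576 and 0.00408) and the oligodendrocyte markers (r = 0.63, rho = 0.73; adjusted permutation p = 0.0196 and 0.00408). It varied inversely with the striatal markers (r = -0.66, rho = -0.74; adjusted permutation p = 0.00912 and 0.00408). Without the 2 farthest libraries these were 0.82, 0.71 and -0.75, and for deviations from group means 0.72, 0.59 and -0.58. Ucn3 was thus higher in libraries with higher hypothalamic and thalamic and lower striatal marker levels.

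Crhbp varied with the 9 cortical and hippocampal markers (r = 0.82, rho = 0.74; adjusted permutation p = 0.00036 and 0.00408). The r was 0.67 without the fifth female control and the fifth susceptible female, and 0.78 for deviations from group means. Ucn, on its 34 reads, varied with the same list (r = 0.75, rho = 0.75; adjusted permutation p = 0.00432 and 0.00408; 0.73 without 2 libraries, 0.75 for deviations). Crhr2 varied with the 5 septal markers (r = 0.74, rho = 0.72; adjusted permutation p = 0.00504 and 0.00566; 0.69 without 2 libraries, 0.75 for deviations).

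Crh varied with the 21 BNST markers (r = 0.65, rho = 0.65; adjusted permutation p = 0.0196 and 0.0198). That relation was weaker without 2 libraries (r = 0.52) and for deviations from group means (r = 0.48). Crhr1 varied with the 5 microglial markers, the genes of immune cells resident in the brain (r = 0.65, rho = 0.67; adjusted permutation p = 0.0183 and 0.0127; 0.66 without 2 libraries, 0.69 for deviations). Whether the amount of each tissue in the dissection sets these levels was not tested.

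**Figure D4:**
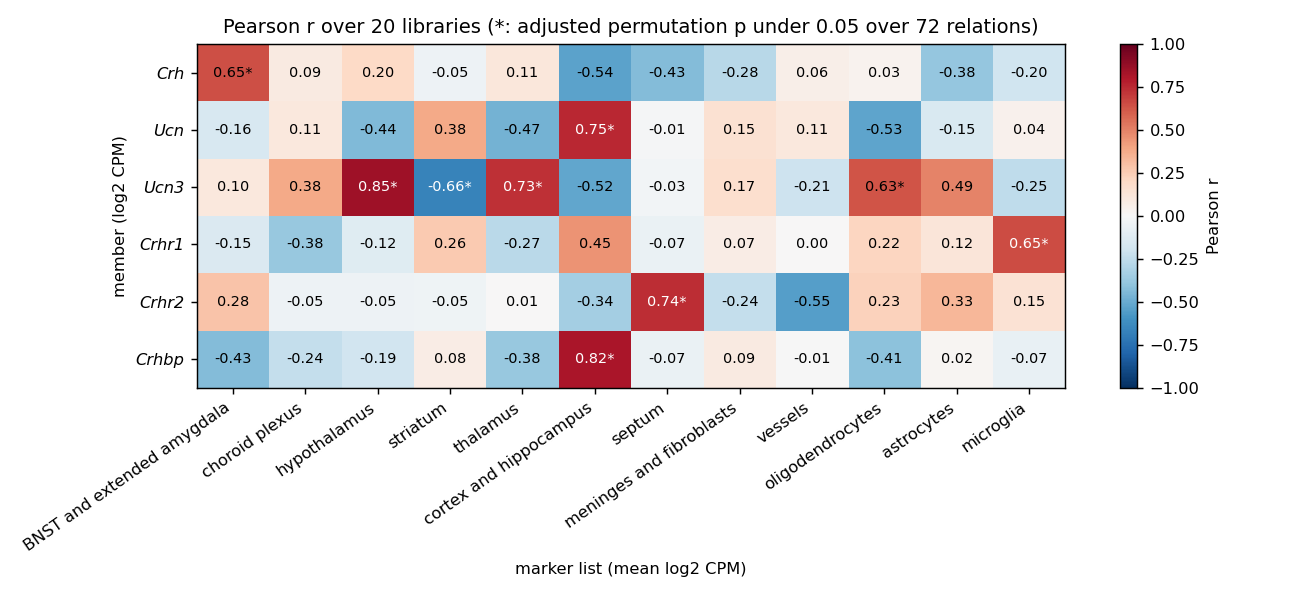
Pearson's r over 20 libraries between the log2 CPM of each gene (rows) and the mean log2 CPM of each of 12 marker lists (columns), with an asterisk where the permutation p adjusted over the 72 relations was under 0.05. The 9 marked cells show that Ucn3 goes with hypothalamus (0.85), Crhbp with cortex and hippocampus (0.82), Crhr2 with septum (0.74) and Crh with the BNST list (0.65).

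**Figure D5:**
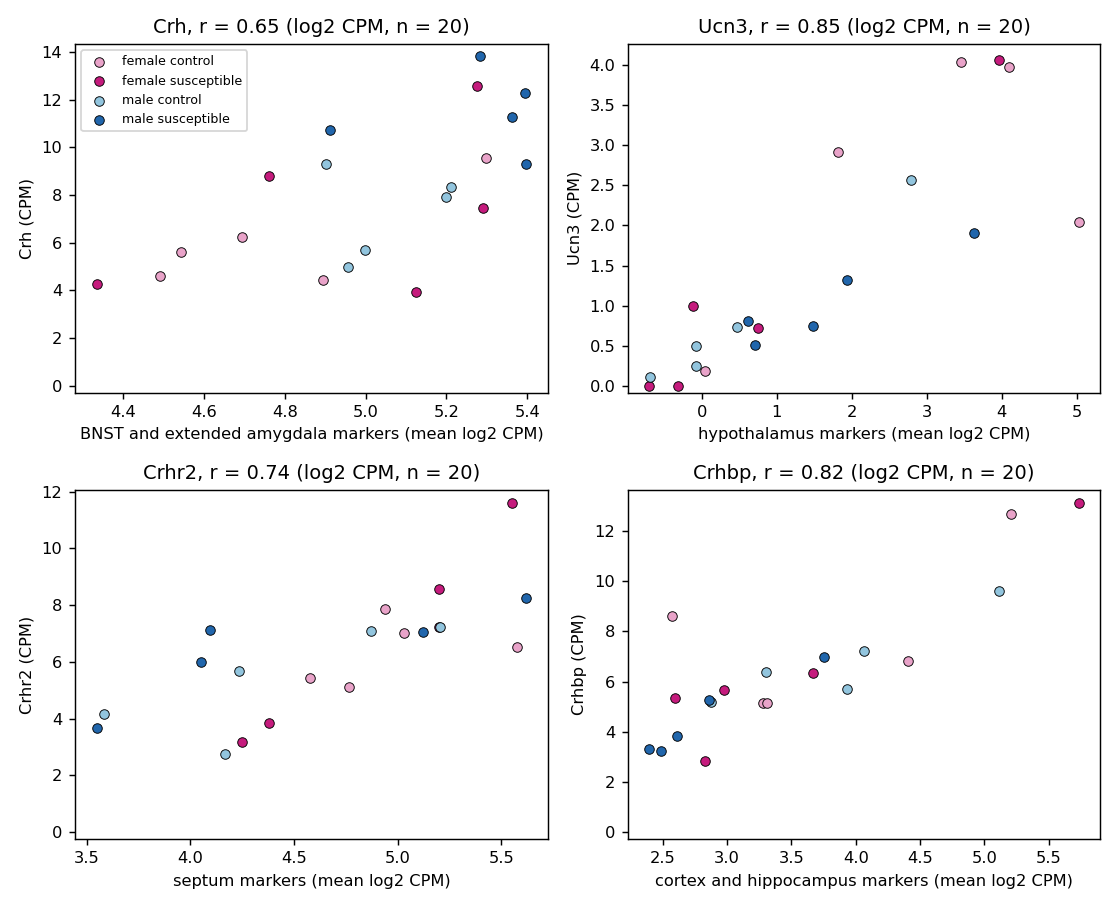
Level of Crh, Ucn3, Crhr2 and Crhbp in CPM (y axes) against the score of 1 marker list each (x axes, mean log2 CPM), with each point a library coloured by group. The relation of Crh is loose, and it is not seen within susceptible males, which lie at 9.32 to 13.8 CPM; the highest Crhbp values (13.1 and 12.7 CPM) are in the libraries with the highest cortical scores.

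The members did not vary together beyond the threshold. Of the 15 pairs, 0 had an adjusted permutation p under 0.05. Over the 20 libraries the largest was the inverse relation of Crh and Crhbp (r = -0.60, rho = -0.55; permutation p = 0.00565 and 0.0138, adjusted p = 0.0847 and 0.156). It was -0.55 without 2 libraries and -0.44 for deviations from group means. Other pairs were larger under these alternatives. Crh and Ucn3 gave r = 0.46 and rho = 0.41 over all libraries (adjusted permutation p = 0.123 and 0.214), 0.20 without 2 libraries and 0.74 for deviations from group means. Crhr1 and Crhbp gave r = 0.50 and rho = 0.46 (adjusted permutation p = 0.0982 and 0.165), and 0.69 without 2 libraries. Ucn and Crhr1 gave r = 0.29 and rho = 0.32 (adjusted permutation p = 0.353 and 0.283), and 0.62 without 2 libraries. Crh and its receptor Crhr1 gave r = -0.50 and rho = -0.48 (adjusted permutation p = 0.0982 and 0.163). Crhr1 and Crhr2 gave r = 0.03 and rho = 0.0015 (adjusted permutation p = 0.964 and 0.997).

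The genes whose pattern over the 20 libraries was most like that of each member, among 14051 other genes that averaged 1 CPM or more (14052 for Ucn), differed between members. For Ucn3 they were Podxl2 (r = 0.95), Asic2 (0.94), Fezf1 (0.93), Otp (0.93) and Cd83 (0.93), and 313 genes had r over 0.8. For Crhbp they were Ccn3 (0.90), Prss12 (0.85), Cckbr (0.85), Tbr1 (0.84) and Frzb (0.83), with 15 genes over 0.8. Otp is a transcription factor of hypothalamic neurons and is in the hypothalamic list, and Tbr1, a transcription factor of cortical excitatory neurons, is in the cortical list.

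For Crh the nearest genes were Slc25a30 (r = 0.79), Tac2 (0.79), Slc19a2 (0.78), Shh (0.78) and Npy2r (0.77), and 0 genes had r over 0.8. Tac2, which encodes neurokinin B, is in the BNST list, and Npy2r encodes a receptor of neuropeptide Y. For Crhr2 they were Whrn (0.84), Lbhd2 (0.81), Zfp521 (0.81), Styk1 (0.80) and Pld5 (0.79). For Crhr1 they were Emid1 (0.76), Pld3 (0.76), P2ry13 (0.73), Baalc (0.72) and Serf2 (0.72), of which P2ry13 encodes a purine receptor found on microglia. For Ucn, on few reads, they were Emx1 (0.84), Dkkl1 (0.83), Pdzrn3 (0.81), Fyb2 (0.81) and Igfn1 (0.79), and Emx1, a cortical transcription factor, is in the cortical list. These r are descriptions of the largest among many genes and carry no test.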

How the data were processed

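Polyadenylated RNA was sequenced as paired reads on an Illumina HiSeq instrument, per the labels' protocols. The authors deposited raw read counts per gene, 1 table per library. The submitters' processing notes name HISAT2, featureCounts and mm10; for their versions, the annotation and the strand setting, the sources used here give nothing. Groups and replicate numbers came from the sample titles. Of 19214 genes, 19180 matched GENCODE M21 (GRCm38), which gave symbols, positions and exon lengths. No pair of libraries within a group agreed within sampling noise.

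Counts were scaled by TMM, filtered with filterByExpr (14884 genes, 5 of the 6 members) and fitted over all 20 libraries with edgeR 4.0.16 (robust quasi-likelihood, R 4.3.3), with Benjamini-Hochberg adjustment over the genes tested and a threshold of 0.05. Levels are TMM-scaled CPM, and correlations used log2 CPM with a prior count of 2. DESeq2 1.42.0 and limma 3.58.1 were alternatives, as were other filters and scalings, a replicate block, leaving out libraries, and region and marker scores as covariates, of which the 4 marker scores were chosen after the correlations had been seen. The code was tested on simulated data. Floors of 3 counts cover counting error only.

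All members were named in each comparison, with up to 2 genes per pathway list and stress comparison by smallest p, and the 5 genes most correlated with each member. The members and lists were chosen with earlier results of these data known. Of the 12 marker lists, choroid plexus, meninges, vessels and astrocytes gave no relation to a member with an adjusted permutation p under 0.05.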

Additional observations from a re-analysis of the deposited data

Results flagged for a closer look

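A single library stood far from the other 4 of its group in 3 of 24 sets of 5 values, by Dixon's criterion. It flags about 1 set in 20 by chance where values are normally distributed. Low counts are not, so the 3 flags cannot be set against that rate. The level of Ucn in the second susceptible male was 0.329 CPM, from 5 reads, while the other 4 libraries of the group had 0 reads. With 4 libraries at 0, any reads in the fifth would have been flagged. The level of Ucn3 in the fourth susceptible female was 4.06 CPM, and the gap to the next library was 0.756 of the range of the group. That library also had the highest hypothalamic marker sum of its group, 422 CPM. The level of Ucn3 in the first male control was 2.56 CPM, with a gap of 0.745 of the range, and it had the highest hypothalamic marker sum of the male controls, 268 CPM. The part of the marker tissue in these values was not tested.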

How the results depend on the processing

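Counts of genes passing the test depended on the method. In this section, fits without high-Pmch libraries kept only 2 female controls, with 4 susceptible females, 5 male controls and 4 susceptible males. Fits without high-Ttr libraries kept 3, 3, 4 and 3 libraries in the same order. Susceptible against control males gave 0 genes with edgeR, 24 with DESeq2 and 689 with limma voom. The mean over the sexes gave 29 with DESeq2, and females gave 0 to 2 when each library was left out in turn, the 2 without the fourth susceptible female. Male against female controls gave 76 genes, but 38 without a low-count filter, 455 with DESeq2, 3324 with voom, 19 with the groups fitted alone, 5 without high-Ttr or high-Pmch libraries, 15 with the region score and 45, 529, 10 and 7 with the BNST, cortex, hypothalamus and septum scores. Leaving out 1 library gave 6 to 458 genes: without female controls 1 to 5 it gave 9, 14, 6, 13 and 458, without male controls 1, 2, 3 and 5 193, 11, 25 and 23, without susceptible females 3 and 4 41 each, and without susceptible males 1, 3 and 4 37, 35 and 34. The sexes in susceptible mice gave 7 genes, 4 under the replicate block, with the groups alone or without high-Ttr libraries, 15 with DESeq2, 11 with voom, 13 without high-Pmch libraries, and 6 to 20 without each library, the 20 without the fourth susceptible female. The cause was not tested.

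Same-numbered libraries showed no regular shared deviation (correlations from -0.58 to 0.642, 6 of 20 libraries closest to their own number). Between male controls and susceptible males all 5 correlations were above 0, at 0.0187 to 0.251. With the replicate block Crh in males was 0.65 (edgeR, adjusted p = 0.416), and male against female controls gave 110 genes.

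Some estimates changed sign, also larger ones such as Ucn3 for females minus males (-1.49). In females, Crh was -0.19 without high-Pmch libraries, Crhr2 was -0.46 without high-Ttr libraries, -0.05 and -0.07 with the BNST and hypothalamus scores and -0.16 to 0.29 without each library, and Crhbp was -0.61 to 0.04 without each. In males, Ucn3 was -0.41 without high-Ttr libraries and -0.36 and -0.20 with the cortex and hypothalamus scores. There Crhr1 was 0.05 without high-Pmch libraries, 0.05 and 0.01 with the cortex and hypothalamus scores and -0.12 to 0.04 without each library, and Crhr2 was -0.02 without high-Ttr libraries. Averaged over the sexes, Ucn3 was -1.12 to 0.13 without each library and Crhr2 -0.24 without high-Ttr libraries. For females minus males, without high-Ttr libraries Ucn3 was 0.11 and Crhr1 0.09, with voom Crhr2 was 0.05, and without each library it was -0.41 to 0.03. Crhbp was -0.04, -0.07 and -0.07 with the region, cortex and hypothalamus scores and -0.02 to 0.63 without each library. Between control sexes, Crhr2 was 0.08 with the septum score and Crhbp -0.33 to 0.08 without each library. Between susceptible sexes, Ucn3 was 0.34 with the block, 1.40 with voom, 0.95 without high-Pmch libraries, 0.30 with the region score and -0.49 to 1.27 without each library. There Crhr1 was -0.17 to 0.02 without each library, and Crhr2 was 0.20 without high-Ttr libraries, 0.25 with the septum score and -0.28 to 0.17 without each library. None of these passed the threshold. Pairs of members with r over 0.6 in size numbered 0, then 2 without the 2 farthest libraries (Crhr1 with Crhbp and Ucn with Crhr1) and 1 for deviations from group means (Crh with Ucn3). DESeq2 gave no adjusted p for any member in the stress comparison of males or in the mean over the sexes.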
